A study of Mus musculus with 9 samples.

Results

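Border-associated macrophages are the resident macrophages of the perivascular spaces, the meninges and the choroid plexus, and 7 of their commonly used marker genes were followed here out of 53801 genes counted: Mrc1, Cd163, Lyve1, Folr2, Cbr2, Siglec1 and Stab1. They were taken as a list of gene names, matched to the Ensembl identifiers of the files. No value in these libraries set the list, but it was chosen with earlier results of these data known. RNA was sequenced from CD11c-Ly6G-CD11b+CD45high monocytes/macrophages sorted by flow cytometry from male C57BL/6J mice 9 weeks old. The 3 stroke brain libraries each hold cells pooled from the lesioned hemispheres of 5 mice, and the 3 stroke blood and 3 sham blood libraries each hold cells of 1 mouse. Stroke was distal middle cerebral artery occlusion (dMCAO), a permanent closure of the left distal middle cerebral artery with ligation of the left common carotid artery, and stroke samples were taken 5 days later. The sources used here do not name the day for sham mice, and no sham brain was analysed here, so tissue and resident cells of the uninjured brain cannot be told apart from the effect of stroke in brain versus blood.

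Macrophages of the perivascular spaces and inner meninges largely renew themselves in the healthy adult, while those of the choroid plexus and the dura are in part replaced by blood monocytes. They sample the fluid around vessels and carry endocytic and scavenger receptors that microglia express little. Mrc1 encodes the mannose receptor CD206, and Cd163 the receptor for haptoglobin bound to hemoglobin. Lyve1 encodes a receptor for hyaluronan, a sugar polymer of the matrix, Folr2 encodes folate receptor beta, and Siglec1 encodes CD169, a receptor for sialic acid that is also an interferon stimulated gene. Stab1 encodes stabilin-1, a scavenger receptor that takes up modified lipoproteins, and Cbr2 encodes a carbonyl reductase. None of these genes belongs to that cell type alone: tissue macrophages of other organs carry several of them, Lyve1 marks lymphatic endothelium, and Siglec1 is found on activated monocytes.

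Stab1, Mrc1, Cd163, Folr2 and Cbr2 were the 5 members called higher in the brain than in either blood group, where 13.1% of all genes were called higher than in stroke blood and 9.75% higher than in sham blood. A gene was called when edgeR's quasi-likelihood test gave a difference over 1 on the log2 scale, up or down, at an adjusted p (Benjamini-Hochberg) under 0.05. These 5 rose together, so the stretches before their starts of transcription are given. They come from RefSeq on GRCm38.p6, the build of the files, cut where GENCODE M21 places the start further upstream than RefSeq. The stretches thus include no base annotated as transcribed for the gene itself, and their overlap with other genes was not examined. They read 5′ to 3′ on the strand of the gene, from chr14:31168642-31168891 (minus strand) for Stab1, chr2:14229164-14229391 (plus) for Mrc1, chr6:124304401-124304650 (plus) for Cd163, chr7:101857195-101857440 (minus) for Folr2 and chr11:120732115-120732271 (minus) for Cbr2. Capitals mark matches, on either strand, to any of 6 motifs searched. GAGGAA is bound by PU.1 and other ETS factors, and TGCTGA is the core of the MAF recognition element. AANNGAAA is the core read by interferon regulatory factors, and TTGCNNAA that read by C/EBP factors. The AP-1 motif was searched as the letters TGANTCA. The TATA box was searched as TATAAA.
Stab1: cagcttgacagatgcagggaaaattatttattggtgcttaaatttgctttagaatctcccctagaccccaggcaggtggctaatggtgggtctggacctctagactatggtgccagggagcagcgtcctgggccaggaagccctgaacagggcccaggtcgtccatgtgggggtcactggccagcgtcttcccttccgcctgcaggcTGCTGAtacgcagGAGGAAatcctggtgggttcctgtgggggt
Mrc1: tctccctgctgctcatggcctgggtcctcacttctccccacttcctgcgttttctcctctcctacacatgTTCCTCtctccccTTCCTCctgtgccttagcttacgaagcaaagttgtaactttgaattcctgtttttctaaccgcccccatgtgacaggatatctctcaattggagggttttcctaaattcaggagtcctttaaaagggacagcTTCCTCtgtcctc
Cd163: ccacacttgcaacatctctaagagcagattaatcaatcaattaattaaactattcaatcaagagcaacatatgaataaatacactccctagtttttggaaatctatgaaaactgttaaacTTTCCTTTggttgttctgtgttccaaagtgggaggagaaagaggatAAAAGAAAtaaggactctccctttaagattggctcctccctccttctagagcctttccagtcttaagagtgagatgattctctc
Folr2: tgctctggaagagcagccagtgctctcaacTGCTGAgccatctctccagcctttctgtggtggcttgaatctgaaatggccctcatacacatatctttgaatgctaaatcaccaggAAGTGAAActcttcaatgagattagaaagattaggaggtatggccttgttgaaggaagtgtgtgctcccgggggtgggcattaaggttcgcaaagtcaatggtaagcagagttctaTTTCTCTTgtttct
Cbr2: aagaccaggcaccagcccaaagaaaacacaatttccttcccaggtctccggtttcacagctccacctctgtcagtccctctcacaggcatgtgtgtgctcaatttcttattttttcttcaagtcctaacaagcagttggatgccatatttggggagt
GAGGAA was found 3 times in the Mrc1 stretch, always on the opposite strand and so printed as TTCCTC, and once in that of Stab1, 30 bases before the RefSeq start. TGCTGA lay 43 bases before the Stab1 start and 220 bases before that of Folr2. AANNGAAA was found in 2 places each for Cd163 and Folr2. The Cbr2 stretch, the shortest with 157 bases, held no match to any of the 6. Matches to different motifs did not overlap, and no motif was shared by all 5 genes. Among 32851 RefSeq promoters, 23.3% held GAGGAA, 16.1% TGCTGA, 21.3% AANNGAAA, 9.56% TTGCNNAA, 6.75% the AP-1 letters and 12.4% TATAAA in the 250 bases before the start. In windows of the length shown for Cbr2 the shares were between 4.24% and 15.3%. A match is a description of the letters and not of a bound site.

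The files held between 18475118 and 22623578 counts per library, so 3 counts, the limit under which a gene was taken as not detected, amounted to 0.133 to 0.162 CPM, the gene's counts scaled by the total of the library. Levels are given in CPM, with the mean ± SD of 3 libraries. CD45high sorting does not separate macrophage types, and the libraries carried other RNA. Of 12 microglia marker genes 11 were called higher in the brain than in stroke blood, where 13.1% of all genes were. In stroke blood 3 of the 12 had at most 3 counts in every library. These passed edgeR's filter on low counts through their brain counts alone, so calls of them add no support. The summed level of the 12 was 2139, 3431 and 5880 CPM in brain libraries 1, 2 and 3. It was 648 to 816 CPM in stroke blood and 467 to 702 CPM in sham blood. Classical monocyte genes remained at 6283 to 6905 CPM in the brain, below the 15310 to 16690 CPM of stroke blood. Erythroid and platelet transcripts were scarce in sham blood library 1 (1221 and 18.1 CPM, against at least 13770 and 324 CPM in each of the other 5 blood libraries), and sham blood library 3 had the highest neutrophil sum, 3282 CPM.

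In the brain, 6 of the 7 members lay higher in every library than in any stroke blood library. The same 6 lay higher than in any sham blood library, Siglec1 being the exception in both. Lyve1, which was not tested, is among the 6. Of the 6 members that passed edgeR's filter on low counts, 5 were called. Folr2 passed it through its brain counts alone, so its call adds no support. The other called members, with counts in every blood library, had log2 fold changes from 1.76 to 6.04 against stroke blood, among 13189 genes tested. Against sham blood their log2 fold changes ran from 1.92 to 6.83, among 13020. Over all genes tested, every brain library was above every stroke blood library for 31.9% and above every sham blood library for 27.4%. The median log2 fold change of the tested members, Folr2 included, was 2.54 against stroke blood, where that of all genes was 0.06. Against sham blood it was 2.65, where that of all genes was 0.01. With Folr2 left out, the middle value was that of Cd163, 2.28 in both comparisons. Both comparisons use the same 3 brain libraries. In sorted bulk RNA, more cells of a type and more RNA per cell cannot be told apart.

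**Figure D1:**
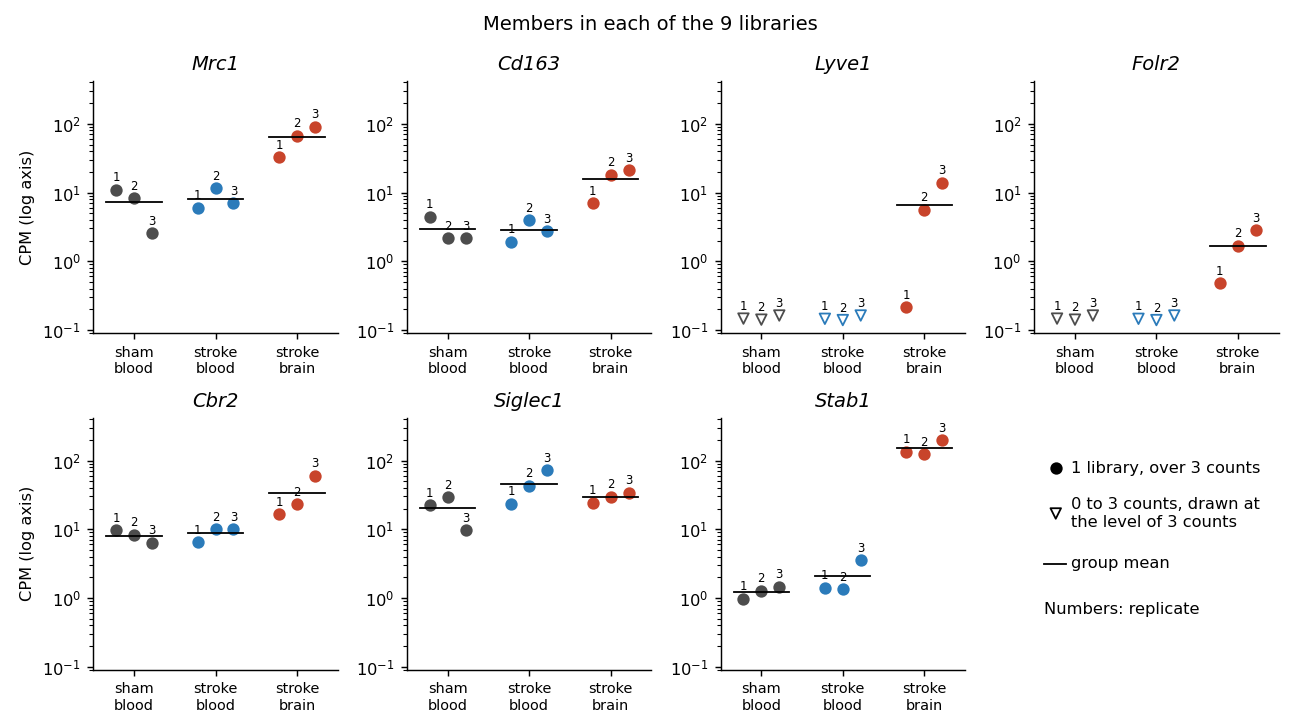
Level of each member in each of the 9 libraries in CPM on a log axis, by group, with the group mean as a line, the replicate number above each point, and open triangles at the level of 3 counts for libraries with 0 to 3 counts. Stab1 lies at 124 to 198 CPM in the brain and at most at 3.51 CPM in blood, Lyve1 and Folr2 have over 3 counts in the brain alone, and the Siglec1 groups overlap.

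Stab1, the scavenger receptor gene on chromosome 14 (31139013 to 31168641, minus strand), showed the widest gap between brain and blood among members with counts in all 9 libraries. It had 20, 27 and 27 counts in the sham blood libraries and 29, 29 and 65 in stroke blood, but 2530, 2814 and 4279 in the brain. On the CPM scale this was 1.23 ± 0.246 (SD, n = 3), 2.08 ± 1.23 and 152 ± 39.8. Even the lowest brain library had 35.5 times the level of the highest blood library. The log2 fold change was 6.04 (SE 0.42, adjusted p = 2.56e-05 by edgeR's quasi-likelihood test with Benjamini-Hochberg adjustment) against stroke blood and 6.83 (SE 0.29, adjusted p = 0.000141) against sham blood. Leaving out stroke blood library 3, the highest of the blood libraries, gave 6.62 in place of 6.04. Of 10288 exonic bases, 112 overlap Nt5dc2 on the other strand, a gene with 482 to 2686 counts per library.

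Mrc1 (chromosome 2, 14229392 to 14332057, plus strand) was present in blood at a low level and higher in the brain. The sham blood libraries had 225, 175 and 47 counts, stroke blood 124, 248 and 130, and brain 608, 1527 and 1966. The means were 7.24 ± 4.29, 8.17 ± 2.93 and 63.6 ± 29.5 CPM. No brain library overlapped with blood, although brain library 1, at 32.4 CPM, had 2.82 times the level of the highest blood library and brain library 3 had 7.91 times. The log2 fold change was 2.81 (SE 0.40, adjusted p = 0.000981, edgeR with Benjamini-Hochberg adjustment) against stroke blood and 3.02 (SE 0.57, adjusted p = 0.0108) against sham blood. Mrc1 and Stab1 were called in both comparisons whichever of the 6 libraries was left out.

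Cd163 (chromosome 6, 124304656 to 124330527, plus strand), the hemoglobin scavenger receptor gene, was likewise higher in the brain. It had 92, 46 and 40 counts in sham blood, 40, 85 and 51 in stroke blood and 132, 410 and 460 in the brain, which gave 2.93 ± 1.34, 2.88 ± 1.01 and 15.5 ± 7.48 CPM. Brain library 1, at 7.04 CPM, had 1.57 times the level of the highest blood library, sham blood 1. The log2 fold change was 2.28 (SE 0.46, adjusted p = 0.00552, edgeR with Benjamini-Hochberg adjustment) against stroke blood. Against sham blood it was 2.28 (SE 0.50, adjusted p = 0.0184), and there the call was lost without sham blood 2 (2.07, adjusted p = 0.0667), sham blood 3 (2.09, adjusted p = 0.0706), brain 2 (2.15, adjusted p = 0.0597) or brain 3 (1.97, adjusted p = 0.0619). Over 12 alternative fits of that comparison the edgeR or DESeq2 adjusted p ranged from 5e-05 to 0.0706.

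Cbr2 (chromosome 11, 120729489 to 120732114, minus strand), the carbonyl reductase gene, had 197, 178 and 117 counts in sham blood, 134, 214 and 186 in stroke blood and 311, 524 and 1298 in the brain. The CPM means were 8.09 ± 1.64, 8.81 ± 2.03 and 33.3 ± 23.4, and brain library 3 alone stood at 60.1 CPM against 16.6 and 23.2 CPM in the other two. All 3 brain libraries were above blood, library 1 at 1.65 times the highest blood value. The log2 fold change was 1.76 (SE 0.45, adjusted p = 0.0172, edgeR with Benjamini-Hochberg adjustment) against stroke blood and 1.92 (SE 0.48, adjusted p = 0.0280) against sham blood.

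Cbr2 kept its call in 2 of the 6 fits with 1 library left out in each comparison. Against stroke blood, Cbr2 missed the threshold without stroke blood 1 (1.55, adjusted p = 0.0776), stroke blood 2 (1.80, adjusted p = 0.0568), stroke blood 3 (1.86, adjusted p = 0.0540) or brain 3 (1.02, adjusted p = 0.0530) in edgeR's test. Against sham blood it did so without sham blood 1 (2.07, adjusted p = 0.0544), sham blood 2 (1.91, adjusted p = 0.0852), sham blood 3 (1.77, adjusted p = 0.0991) or brain 3 (1.17, adjusted p = 0.0504). In all these fits Cbr2 was higher in the brain. Over the 12 alternatives of each comparison its adjusted p went from 0.00026 to 0.0776 against stroke blood and from 0.000283 to 0.0991 against sham blood.

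Folr2 (chromosome 7, 101839988 to 101857194, minus strand), the folate receptor beta gene, was all but undetected in blood. Sham blood had 0 counts in all 3 libraries, stroke blood had 2, 0 and 0, and the brain had 9, 38 and 61, or 1.66 ± 1.17 CPM. Against 3 counts per library, the brain mean was at least 11.2-fold higher than stroke blood and at least 11.1-fold higher than sham blood. It was called higher in both comparisons (adjusted p = 0.00734 and 0.0150, edgeR with Benjamini-Hochberg adjustment). The fit could not be made without brain 2 or brain 3, because Folr2 then failed the filter on low counts. Of its 1546 exonic bases 975 overlap Gm10602 on the other strand, so reads from these bases may have been left out or assigned to either gene. Gm10602 itself had 0 to 6 counts per library.

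Lyve1 (chromosome 7, 110850607 to 110863239, minus strand), the hyaluronan receptor gene, varied most between the brain pools. It had 0, 1 and 0 counts in sham blood and 0, 1 and 1 in stroke blood. Brain libraries 1, 2 and 3 had 4, 128 and 301 counts, that is 0.213, 5.66 and 13.9 CPM, so brain library 1 was just over the limit of 3 counts while library 3 had 65.3 times the level of library 1. The filter on low counts left Lyve1 out of the test. The brain mean of 6.60 ± 6.91 CPM was at least 44.4-fold higher than 3 counts in each stroke blood library and at least 44.1-fold higher than in sham blood. Without the filter, edgeR gave adjusted p = 0.000165 against stroke blood, and the adjusted p of the 6 alternatives that kept the gene lay between 0.000165 and 0.0364. Against sham blood 3 of 6 such alternatives called it, with adjusted p from 0.000578 to 0.0762, and it was not called without sham blood 1, 2 or 3. Lyve1 enters these fits through its brain counts alone, so its calls add no support.

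Endothelial transcripts bear on Lyve1, which lymphatic endothelium also expresses. Prox1, the transcription factor gene of that endothelium, had 0, 15 and 28 counts in brain libraries 1, 2 and 3 and at most 2 in blood, and thus followed the order of Lyve1. Cldn5 and Tek were at 0 counts in all 9 libraries, Flt4 had 3 to 6 counts in the brain, and Cdh5 had 4 to 13. The summed level of the 7 endothelial genes was 44.7 to 60.2 CPM in the brain, 37.3 to 53.5 CPM in stroke blood and 32.6 to 51.6 CPM in sham blood. This sum does not measure endothelium, since 5 of the 7 genes had at most 3 counts in every stroke blood library. Flt1 alone had means of 25.5 CPM in the brain, 35.1 CPM in stroke blood and 23.5 CPM in sham blood. Of the 2 genes tested, Pecam1 was called higher than in stroke blood, where 13.1% of all genes were. The part of such cells in the Lyve1 counts was not tested.

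Siglec1 (chromosome 2, 131069220 to 131086765, minus strand), the CD169 gene, did not share the pattern. It had 457, 618 and 180 counts in sham blood, 484, 923 and 1342 in stroke blood and 456, 673 and 731 in the brain, or 20.3 ± 9.79, 46.2 ± 24.7 and 29.3 ± 4.77 CPM. The highest library of all was stroke blood 3 at 72.4 CPM, and the brain libraries, at 24.3 to 33.8 CPM, lay within the range of stroke blood. The log2 fold change was -0.82 (95% confidence interval -1.64 to 0.00, adjusted p = 0.119, edgeR with Benjamini-Hochberg adjustment) against stroke blood and 0.41 (-0.43 to 1.25, adjusted p = 0.458) against sham blood. Without stroke blood 1 it was called lower in the brain than in stroke blood (-1.18, adjusted p = 0.0279), and without stroke blood 3 the difference was -0.33 (adjusted p = 0.444), the bounds of the adjusted p over 12 alternatives.

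**Figure D2:**
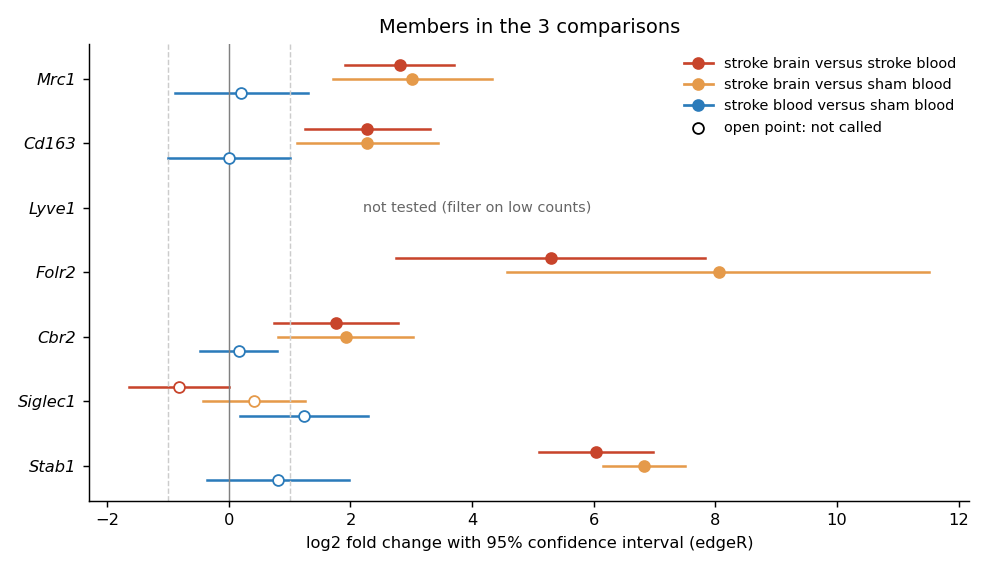
Log2 fold change (points) and 95% confidence interval (lines) of each tested member in the 3 comparisons, fitted by edgeR, with dashed lines at -1 and 1 and filled points for members that were called. The points of the brain comparisons lie above 1 for Mrc1, Cd163, Folr2, Cbr2 and Stab1, the blood comparison has no call, and the Folr2 points depend on the prior count because nearly all blood libraries had 0 counts.

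Whether stroke altered these genes in circulating monocytes was asked by comparing stroke blood with sham blood. Of 5 members tested, 0 were called by edgeR, 1 had an unadjusted p below 0.05, and DESeq2 also called 0. Across 12664 genes edgeR called 1, or 0.0079%. The member with the low p was Siglec1, with a log2 fold change of 1.23 (95% confidence interval 0.18 to 2.28, unadjusted p = 0.0262, adjusted p = 0.347 by edgeR). Stroke blood 2 and 3 were above all sham libraries in Siglec1, and stroke blood 1, at 23.4 CPM, lay between sham blood 1 and 2. Over 12 alternatives the adjusted p went from 0.0421, without the filter on low counts, to 0.707.

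The other members tested in blood had intervals on both sides of 0. Mrc1 differed by 0.21 on the log2 scale (95% confidence interval -0.89 to 1.30), Cbr2 by 0.16 (-0.48 to 0.80) and Stab1 by 0.80 (-0.37 to 1.97), with adjusted p of 0.876, 0.827 and 0.540 in edgeR's test. Stab1 fell to 0.17 without stroke blood 3. Cd163 was level in the means, 2.93 CPM in sham and 2.88 CPM in stroke blood, with a 95% confidence interval of -1.003 to 1.006. Lyve1 and Folr2, with 0 to 2 counts in each blood library, did not pass the low-count filter and were not called without it (adjusted p = 0.890 and 0.663, edgeR with Benjamini-Hochberg adjustment), and a difference between the blood groups was not detectable at this depth. Sham blood 3 had the lowest level of Mrc1, Cbr2 and Siglec1 of the 9 libraries, and it was also the library with the highest neutrophil and classical monocyte sums (3282 and 33730 CPM). The part of those cells in the spread of the sham group was not tested.

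Levels of different genes were compared per kilobase of exon, since longer transcripts collect more reads. In the brain the order was Cbr2 (25.1 ± 17.7 CPM per kb), Stab1 (14.8 ± 3.87), Mrc1 (9.99 ± 4.62), Siglec1 (4.10 ± 0.668), Cd163 (2.83 ± 1.37), Lyve1 (2.26 ± 2.37) and Folr2 (1.07 ± 0.758). Only Mrc1 and Siglec1 had ranges that did not overlap among neighbours in this order. Stroke blood had another order. There Cbr2 (6.64 ± 1.53 CPM per kb) and Siglec1 (6.47 ± 3.46) led with overlapping ranges, Mrc1 (1.28 ± 0.461) and Cd163 (0.526 ± 0.185) followed, and Stab1 (0.203 ± 0.120) came next, its range apart from those of its neighbours. Stab1 thus stood in the fifth place in stroke and sham blood and in the second place in the brain. Siglec1 was in the second place in blood and the fourth place in the brain.

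**Figure D3:**
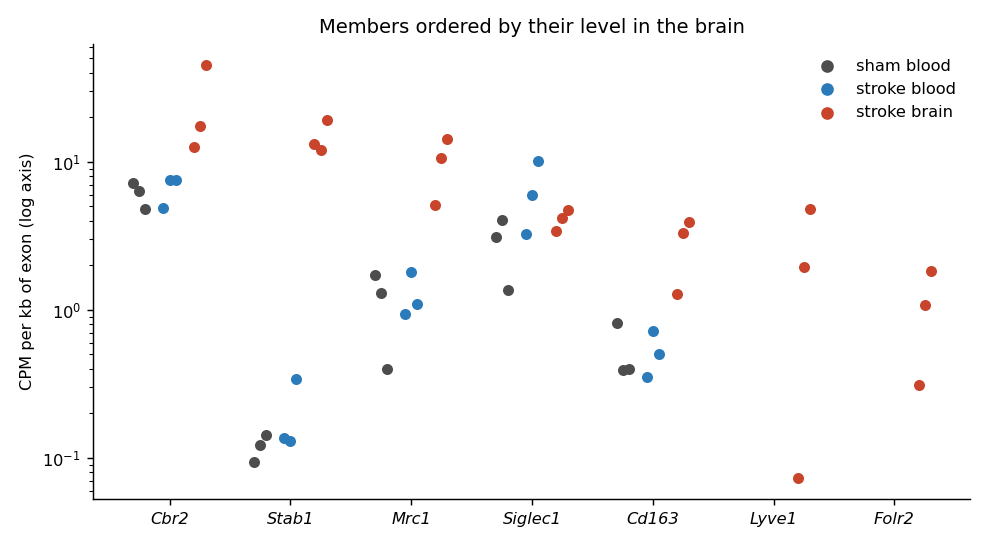
Level of each member in CPM per kb of exon on a log axis, ordered by the brain mean, with 1 point for each library that had over 3 counts. Stab1 has the lowest blood points, at most 0.341 CPM per kb, and the second highest brain mean, 14.8 CPM per kb.

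The 3 brain pools did not carry the members evenly. For 6 of the 7 members, library 1 had the lowest and library 3 the highest level, an order that 18.9% of 13189 tested genes had, and Stab1 was lowest in library 2. The highest brain library exceeded the lowest by 1.39 times for Siglec1, 1.59 times for Stab1, 2.81 times for Mrc1, 3.02 times for Cd163, 3.62 times for Cbr2 and 5.88 times for Folr2, all well short of Lyve1. The microglia sum had the same order, with 2139, 3431 and 5880 CPM. Fibroblast and mural genes, whose cells share the border tissue, had the opposite order, at 384, 9.24 and 1.62 CPM, with 4204, 20 and 0 counts of the collagen gene Col1a1. Choroid plexus genes were highest in library 1 (253 CPM) and lowest in library 2 (31.9 CPM), against 0.0540 CPM or less in blood. How far the tissue taken with each pool set the members' levels was not tested.

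**Figure D4:**
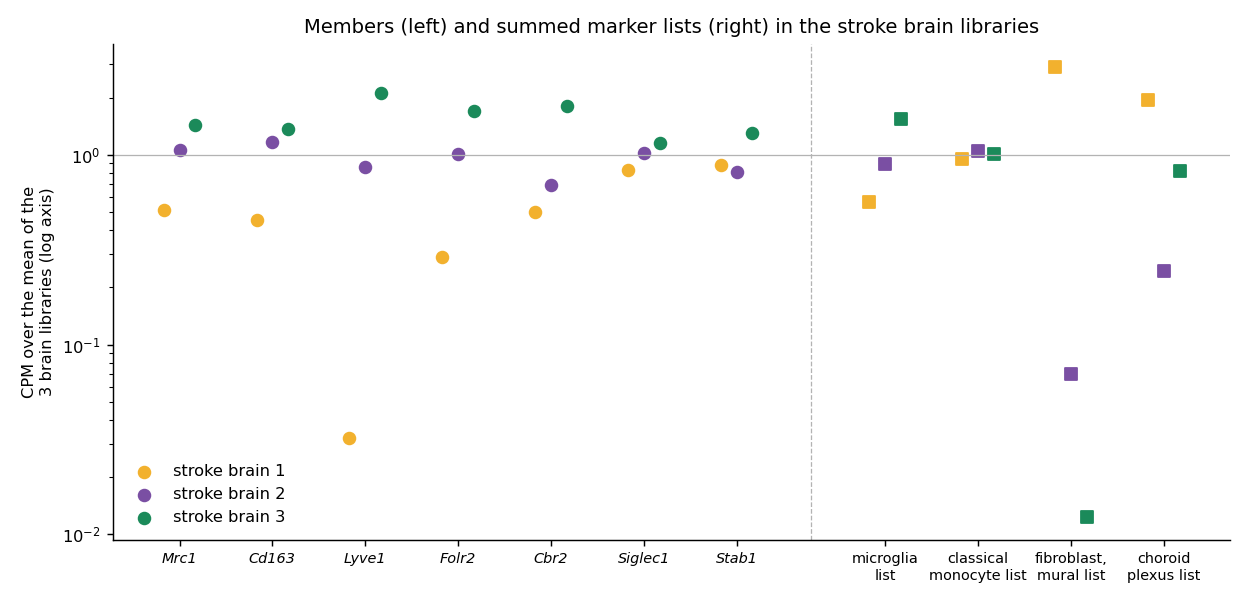
Level in each stroke brain library divided by the mean of the 3, on a log axis, for the 7 members (circles) and for the summed CPM of 4 marker lists (squares). Lyve1 spans the widest range among the members, the microglia list has the order of 6 members with library 1 lowest and library 3 highest, and the fibroblast and mural list has the opposite order.

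A further 28 genes known from border-associated macrophages were examined as a list. Of 26 tested against stroke blood, 14 were called higher and 3 lower in the brain, where 13.1% and 7.86% of all genes were. The median log2 fold change was 2.14. Gas6, which encodes a bridging ligand that tags dead cells for uptake, had 0 counts in stroke blood and 675, 1636 and 2416 in the brain, at least 494-fold higher. Dab2, an adaptor for endocytosis, had 0, 9 and 0 counts in stroke blood and 4456, 5977 and 6327 in the brain (log2 fold change 10.61, adjusted p = 1.04e-05, edgeR with Benjamini-Hochberg adjustment). Both were nearly absent from blood, although sham blood 1 had 46 counts of Dab2. They passed the filter through their brain counts alone, and calls of such genes add no support in either comparison. Between the blood groups 21 genes of the list were tested. The growth factor gene Igf1 (5.25, adjusted p = 8.82e-05) and the iron exporter gene Slc40a1 (4.54, adjusted p = 0.00687) were also called higher.

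Cd209f, a C-type lectin gene, was the gene most like Lyve1 in its values over the 9 libraries. It had 0 counts in all 6 blood libraries and 10, 149 and 484 in the brain, at least 66.2-fold higher than stroke blood. The root mean square difference between the mean-centred log2(CPM + 1) values of Cd209f and Lyve1 was 0.231, where Lyve1 itself had a root mean square of 1.38. The chemokine gene Ccl8 and the lectin gene Cd209g, 2 genes of the same list that the filter left out and that were picked after their values were seen, also had little in brain library 1: Ccl8 had 4, 238 and 887 counts, and Cd209g had 0, 60 and 50. In blood Ccl8 had at most 2 counts and Cd209g at most 4. The Cd209 genes are paralogs of one another, and reads may have been split between them.

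The list moved in both directions. The 3 genes called lower in the brain than in stroke blood were Wfdc17 (log2 fold change -1.73, adjusted p = 0.000257), F13a1, which encodes a coagulation factor subunit (-1.06, adjusted p = 0.00623), and Ms4a6c (-1.02, adjusted p = 0.00206, edgeR with Benjamini-Hochberg adjustment). F13a1 had 25919 to 56784 counts in stroke blood and 20254 to 23527 in the brain, and the groups did not overlap. Pf4, another common marker, is also a platelet gene. It was not called (-0.72, adjusted p = 0.0757), and it had 95 counts in sham blood 1, the library scarce in platelet transcripts, and 1722 and 2471 in the other sham libraries. For Ms4a6c, 1088 of 2050 exonic bases overlap BE692007 on the other strand, which makes its count uncertain. Against sham blood, 11 of 26 genes of the list were called higher and 2 lower, where 9.75% and 3.67% of all genes were.

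**Figure D5:**
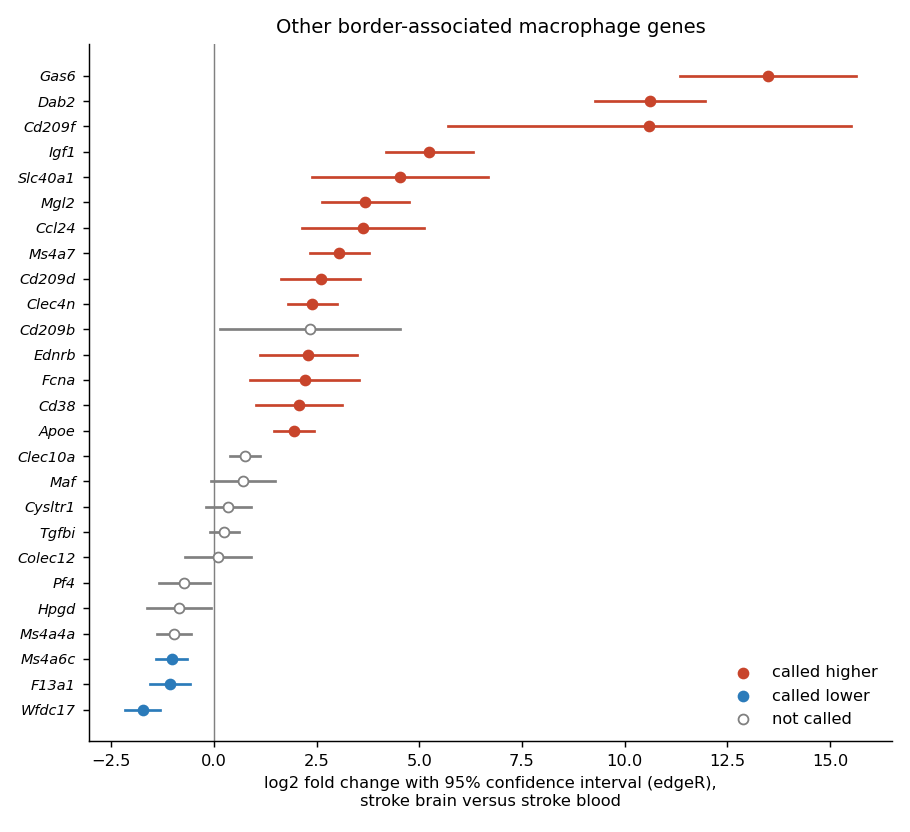
Log2 fold change and 95% confidence interval in stroke brain versus stroke blood for the 26 tested genes of the wider list, fitted by edgeR. The 14 genes called higher run from 1.95 for Apoe to 13.49 for Gas6 and the 3 called lower from -1.73 to -1.02, and the fitted values of Gas6 and Cd209f depend on the prior count because stroke blood had 0 counts.

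Relatives of the members were examined next, in a list that also holds genes sharing a ligand with a member rather than its family, such as Hmmr and Slc46a1. Of 20 tested, 9 were called higher than in stroke blood and 1 lower, where 13.1% and 7.86% of all genes were. Against sham blood 7 of 20 were called higher and 1 lower, where 9.75% and 3.67% of all genes were. Between the blood groups 16 genes of the list were tested. Genes that passed the filter through their brain counts alone, such as Mrc2, add no support by a call. The median log2 fold change of the list was 1.73 against stroke blood and 0.68 against sham blood. Mrc2, the closest relative of Mrc1 and a collagen receptor gene, had 0 counts in all blood libraries and 108, 57 and 123 in the brain, at least 31.3-fold higher. Siglech, a microglia gene of the Siglec family, had 0 counts in stroke blood and 1256, 1469 and 3614 in the brain, at least 671-fold higher, and Siglece, an inhibitory Siglec gene, was called lower (log2 fold change -1.09, adjusted p = 0.00307, edgeR with Benjamini-Hochberg adjustment). Siglec1 itself was not called in either direction. Cd83, an immunoglobulin family gene of activated antigen-presenting cells, rose by 6.46 on the log2 scale (adjusted p = 3.83e-05), and Hmmr, another hyaluronan receptor gene, by 4.54 (adjusted p = 0.00134). Cd44, the main hyaluronan receptor gene of leukocytes, was not called (-0.38, adjusted p = 0.0956).

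The other carbonyl reductase genes Cbr1, Cbr3 and Cbr4 did not pass the test in the brain (log2 fold changes 0.20, -0.76 and -0.58 against stroke blood). Folr1, the relative of Folr2 expressed in choroid plexus epithelium, had 74, 30 and 5 counts in the brain and 0 in blood, so its order across the brain libraries was the reverse of the 9, 38 and 61 counts of Folr2. Slc46a1, a proton-coupled transporter of folate, was called higher (1.84, adjusted p = 0.00401, edgeR with Benjamini-Hochberg adjustment). Stab2, the relative of Stab1 in liver and lymphoid sinus endothelium, had 0, 0 and 10 counts in the brain and 0 to 6 in blood.

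Cd163 takes up hemoglobin bound to haptoglobin, so genes of heme handling were set beside it. Of 12 tested, Cd163 included, 3 were called higher and 2 lower than in stroke blood, where 13.1% and 7.86% of all genes were. The median log2 fold change of these genes was 0.10, close to the 0.06 of all genes. The ferritin heavy chain gene Fth1 rose by 1.21 on the log2 scale (adjusted p = 0.000735), while the haptoglobin gene Hp fell by 1.70 (adjusted p = 0.00015) and the heme exporter gene Flvcr1 fell by 1.12 (adjusted p = 0.00447, edgeR with Benjamini-Hochberg adjustment). The third gene called higher was Slc40a1. Hmox1, the heme oxygenase that splits heme, was not called, with 3079, 3016 and 2892 counts in stroke blood and 2933, 4703 and 4542 in the brain (0.22, adjusted p = 0.36). Hemoglobin transcripts themselves were low in the brain libraries, where the sum of 6 erythroid genes was 4.16 to 14.5 CPM against 13770 to 18410 CPM in stroke blood.

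Transcription factors and receptors that shape macrophages were set beside the members. Of 18 tested against stroke blood, 5 were called higher, 0 lower and 13 not at all, where 13.1% and 7.86% of all genes were called higher and lower. The median log2 fold change of the list was 0.63, against 0.06 for all genes. The liver X receptor gene Nr1h3 rose by 1.59 on the log2 scale against stroke blood, Pparg by 1.36, the interleukin-4 receptor gene Il4ra by 1.22 and the interleukin-10 receptor gene Il10rb by 1.10, all called by edgeR with Benjamini-Hochberg adjustment. Maf was not called against stroke blood (0.71, adjusted p = 0.153), and Spi1, which encodes PU.1, differed by -0.14 (adjusted p = 0.551).

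Siglec1 responds to type I interferon, so 12 interferon stimulated genes were set beside it. Of these 12, the chemokine gene Cxcl10 was the 1 called higher in the brain than in stroke blood (log2 fold change 1.45, adjusted p = 0.00322, edgeR with Benjamini-Hochberg adjustment), where 13.1% of all genes were. The median of the list was -0.12. Their sum was 814 CPM in sham blood 3, the library with the lowest Siglec1 level, and 1363 to 1769 CPM in the other 8 libraries. Mx1, of this list, was the gene most like Siglec1 over the 9 libraries, with a root mean square difference of 0.338 against 0.706 for Siglec1 itself. Snx25 (0.379) and Flt1 (0.407), which are not on this list, came next.

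For the other members the genes with the smallest root mean square difference of mean-centred log2(CPM + 1) over the 9 libraries were Axl for Mrc1 (0.382, where Mrc1 itself had 1.49), Cenpf for Cd163 (0.264 against 1.05), Rhoh for Folr2 (0.158 against 0.689), Prkar1b for Cbr2 (0.192 against 0.923) and Arg1 for Stab1 (0.243 against 2.79). Centring removes the level and the added 1 compresses low values, so this measure does not match levels or folds: Rhoh had means of 21.1 CPM in stroke blood and 53.5 CPM in the brain, far above Folr2, and Cenpf went from 0.140 to 4.23 CPM, a larger fold than that of Cd163. Arg1, which encodes arginase 1, had a mean of 0.376 CPM in stroke blood and 64.1 CPM in the brain. Axl, which encodes a receptor for Gas6, had 74.3 and 360 CPM. These values share libraries and depth, and they describe likeness over 9 points only.

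Other macrophage and myeloid markers were checked beside the members. Of 7 genes that most macrophages carry, 2 were called higher than in stroke blood, where 13.1% of all genes were. They were Mertk (log2 fold change 6.19, adjusted p = 0.000305) and Aif1 (1.13, adjusted p = 0.00552, edgeR with Benjamini-Hochberg adjustment). Adgre1, which encodes F4/80, was not called in the same test (-0.28, adjusted p = 0.268). Dendritic cells also express Mrc1. Of 7 of their genes 6 were called higher than in stroke blood, where 13.1% of all genes were. The sum of the 7 was 748 to 1020 CPM in the brain, 99.9 to 231 CPM in stroke blood and 112 to 348 CPM in sham blood. Itgax, which encodes the CD11c used to gate such cells out, had 2643, 1786 and 1851 counts in the brain against 403, 248 and 204 in stroke blood. Their sum was highest in brain library 1, where 6 members were lowest. Macrophages of other organs share several members. The Kupffer cell gene Clec4f was at 0 counts in all 9 libraries and Marco and Gata6 had at most 5 in any, while Timd4 had 11, 115 and 92 counts in the brain and 0 in blood. Cd5l had 115, 68 and 136 counts in the brain, 0, 0 and 26 in stroke blood and 0 in sham blood. Siglecf had 206, 364 and 474 in the brain, 10, 222 and 66 in stroke blood and 85, 136 and 152 in sham blood. The sum of the 7 genes of that list was 17.9 to 33.1 CPM in the brain, 0.483 to 10.3 CPM in stroke blood and 4.13 to 8.23 CPM in sham blood. Of 3 tested, 1 was called higher than in stroke blood and 3 higher than in sham blood, where 13.1% and 9.75% of all genes were. Calls of genes with 0 counts in a blood group rest on brain counts alone and add no support. The part of these cells in the members' levels was not tested.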

How the data were processed

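The authors mapped paired-end reads of SMART-Seq HT libraries to GRCm38 with HISAT2 after FastQC in Chipster and assigned them to Ensembl genes with HTSeq. The deposited files hold the resulting raw read counts. Versions, annotation release and strand setting are not given in the sources used here. Libraries were grouped by the tissue and surgery in their labels. Nothing in the sources names separate cultures or preparations beyond the mice and pools, and reads carried no molecular identifiers, so limits of 3 counts cover counting error only. Libraries of the same group differed beyond counting noise (chi-square per degree of freedom 23.9 to 136 over 9 pairs).

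Each pair of groups was tested by the quasi-likelihood method of edgeR 4.0.16 (R 4.3.3) after TMM scaling and its default filter on low counts, with Benjamini-Hochberg adjustment over all genes tested. A fold against a group with at most 3 counts in every library is a lower bound against 3 counts per library. CPM used raw library totals. The methods were tested on simulated data. Alternatives were DESeq2 1.42.0, no filter, RLE or library size scaling, all 9 libraries in 1 fit, no fold threshold, the replicate number as a block, and each library left out. Symbols, positions and exon lengths came from GENCODE M21. Exons of Gas6, Dab2, F13a1, Maf, Stab2, Flvcr1, Nr1h3, Il10rb, Il4ra, Cxcl10 and Prox1 overlap another gene in part, and their counts are uncertain to that extent. Of 197 genes on the lists, 196 were matched. Figures used Python 3.11.15 and matplotlib 3.10.9.

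The members, the lists and the tests were chosen with earlier results of these data known. All members were named, and from each other list up to 6 genes, first those called in stroke brain versus stroke blood by size of change, with rises and falls, then those at the highest level. Genes named beyond that rule, as with a few marker genes and relatives, were chosen after their values were seen. Genes most like a member were those with the smallest root mean square difference of mean-centred log2(CPM + 1). A result on a gene of these lists is not reported here.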

Additional observations from a re-analysis of the deposited data

How the results depend on the processing

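The number of members called higher in stroke brain than in stroke blood was 5. With 1 library left out, it went from 3 without brain 3 to 6 without brain 1. Against sham blood it was 5, and it went from 2 without brain 3 to 6 without brain 1. Folr2 and Lyve1 enter these numbers through their brain counts alone, so their calls add no support. Each 6 given here includes both genes. The sources used here do not say whether libraries with the same number share animals, and same-numbered libraries did not deviate together (correlations -0.0702 to 0.0663). With the replicate block, 3 members were called against sham blood, Cd163 (2.24, adjusted p = 0.0595) and Cbr2 (1.69, adjusted p = 0.0719) being lost, and the count against stroke blood stayed at 5. Without the filter on low counts, 1 member, Siglec1, was called between stroke and sham blood (1.21, adjusted p = 0.0421). The number of all genes called there was 1 in edgeR with the filter, 160 without it and 135 in DESeq2, and the cause was not tested. Cd163, near 0 in that comparison, changed sign to -0.00498 in DESeq2, -0.0198 without the filter and -0.0292 with library size scaling, and ranged from -0.31 to 0.45 with 1 library left out, as Mrc1 did from -0.20 to 0.65. With all 9 libraries in 1 fit, the filter left out Folr2 as well as Lyve1, and 4 members were called in each brain comparison. DESeq2 and edgeR without the filter, which tested Lyve1, called 6 in each: the Lyve1 fold change was 7.48 and 7.26 (log2) against stroke blood (adjusted p = 0.000347 and 0.000165), and 8.42 and 8.10 against sham blood (adjusted p = 0.000578 and 0.00262), with Benjamini-Hochberg adjustment. Apart from these changes, the alternatives outside the leave-out fits kept the direction and the side of the threshold of each member they tested.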
